A study of Mus musculus with 9 samples.

Results

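The genes described here encode pre-mRNA splicing factors and heterogeneous nuclear ribonucleoproteins (hnRNPs). They were taken as every protein coding row of the deposited gene table whose name starts with Hnrnp, Srsf, Sf3a, Sf3b, Snrp, Prpf or U2af, which gave 37 of 3958 genes. The prefixes held 18 Hnrnp genes, 8 Srsf genes, 3 Sf3b genes, 6 Prpf genes, 1 Snrp gene (Snrpb) and 1 U2af gene (U2af2), and no Sf3a gene. RNA-seq was done on adipose tissue taken at day 21 from male mice of the C57BL/6J strain, in a study whose title names electroacupuncture and obesity induced by a high-fat diet. The 9 libraries form 3 groups of 3. The group titled APX is the one that carries the treatment label EA (electroacupuncture) and is called EA here (libraries 5, 7 and 8). The groups CPX (4, 6 and 8) and MPX (2, 5 and 7) carry no treatment label. The labels state the diet of no group, the fat depot of no library and no age, so no diet is assigned to CPX or MPX. Nor do they tie each library to its own mouse, so the tests reflect only how far these libraries spread.

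Splicing removes introns from pre-mRNA in the spliceosome, which is built from small nuclear ribonucleoprotein particles (snRNPs) and many further proteins. The U2 snRNP, with SF3B, and the U2AF dimer recognise the branch site and the polypyrimidine tract, and the tri-snRNP and the Prp19 complex then bring the catalytic core together. SR proteins mostly promote the use of exons and splice sites, many hnRNPs bind nascent RNA and often repress them, and several members of both families also act in mRNA export, stability and translation.

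The table listed the most abundant genes only, with column sums of 12115183 to 14208853 counts per library. Those sums are not whole library depths, and levels are given as CPM, in which each library's listed counts are scaled to the same total with TMM factors. The members' own totals over the 9 libraries ran from 9874 counts (Hnrnpa3) to 78722 counts (Hnrnpa2b1). All 18 adipocyte markers of the list used were in the table, and none of the 12 retina markers was, although the extraction protocol speaks of retinas. Library CPX 6 stood apart from CPX 4 and CPX 8: its adipocyte markers summed to 20063 CPM, while CPX 8 held 104287 CPM and CPX 4 158131 CPM, and its B cell markers summed to 3615 CPM, against 54.7 CPM and 18.6 CPM. Comparisons with CPX are therefore also given without CPX 6. CPX 4 was unusual as well. Its 12 mitochondrially encoded genes summed to 155595 CPM, against 30409 to 60340 CPM in the other libraries. Its TMM factor was 0.753, against 0.981 to 1.10 elsewhere. The CPX group without CPX 6 thus still holds an unusual library.

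Promoters of 4 members are shown first, chosen for the group patterns described for these genes later. RefSeq promoters of build GRCm38.p6 (mm10) were found for 33 of the 37 members. For these 4 the 250 bases before the start site are printed, 5′ to 3′ on the gene's own strand, with searched motifs in capitals: CCGGAAG (the core bound by ETS factors), GCATGCGC (NRF1), CCAAT (bound by NF-Y) and GGGCGG (GC box), each on either strand. Srsf7 (chr17:80207306-80207555, minus strand) and Prpf38b (chr3:108911730-108911979, minus strand) are the members with the smallest p for EA against MPX, and Hnrnpc (chr14:52104022-52104271, minus strand) is the one with the smallest p for MPX against CPX. Srsf5 (chr12:80945249-80945498, plus strand) has the lowest EA minus MPX difference, 1 of 4 negative ones, with overlapping ranges.
Srsf7: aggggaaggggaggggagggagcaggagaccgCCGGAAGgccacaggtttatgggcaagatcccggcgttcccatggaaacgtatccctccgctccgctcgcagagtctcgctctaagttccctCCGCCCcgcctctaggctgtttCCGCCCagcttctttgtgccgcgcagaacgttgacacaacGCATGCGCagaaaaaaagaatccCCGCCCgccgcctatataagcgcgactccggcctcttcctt
Prpf38b: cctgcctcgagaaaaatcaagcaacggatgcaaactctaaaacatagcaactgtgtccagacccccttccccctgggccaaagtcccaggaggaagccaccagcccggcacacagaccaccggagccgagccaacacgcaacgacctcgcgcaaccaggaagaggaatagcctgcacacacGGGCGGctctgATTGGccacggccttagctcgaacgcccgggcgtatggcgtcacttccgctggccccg
Hnrnpc: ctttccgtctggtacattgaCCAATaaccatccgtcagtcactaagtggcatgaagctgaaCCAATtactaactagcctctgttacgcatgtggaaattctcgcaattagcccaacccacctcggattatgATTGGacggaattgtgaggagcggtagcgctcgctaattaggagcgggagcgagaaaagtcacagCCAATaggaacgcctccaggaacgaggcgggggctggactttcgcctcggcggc
Srsf5: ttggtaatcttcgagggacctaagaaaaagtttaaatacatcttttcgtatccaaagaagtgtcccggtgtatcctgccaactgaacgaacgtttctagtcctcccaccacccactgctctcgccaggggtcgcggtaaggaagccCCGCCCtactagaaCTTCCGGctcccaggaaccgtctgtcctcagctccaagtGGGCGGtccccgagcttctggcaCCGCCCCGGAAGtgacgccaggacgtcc
In the printed windows Srsf7 held an ETS match, an NRF1 match and 3 GC boxes, and Srsf5 held 2 ETS matches and 3 GC boxes. Hnrnpc held 4 CCAAT matches and no other searched motif. In windows of 250 bases before to 50 bases after the start, CCAAT occurred in 22 of the 33 members (66.7%), against 41.2% of 3105 matched genes of the table and 41.1% of 27025 RefSeq genes. ETS letters occurred in 10 members (30.3%, against 18.7% and 9.93%), NRF1 letters in 3 (9.09%, against 6.15% and 3.05%) and the GC box in 24 (72.7%, against 74.8% and 38.2%). YY1 letters occurred in 2 (6.06%, against 9.11% and 7.28%) and CRE letters in 0 (against 3.51% and 2.03%). The E-box occurred in 5 (15.2%, against 12.1% and 8.09%) and the TATA box in 5 (15.2%, against 9.24% and 15.7%). The 22 members with CCAAT had a median log2 difference of 0.26 for EA minus MPX and the 11 without it one of 0.33. A match is a string of letters and not a site shown to be bound.

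Most members were above their own mean over the libraries in CPX 6, EA 8 and EA 7, and most were below it in the other 6 libraries. CPX 6 held the highest level of 36 of the 37 members (97.3%), whereas it held the highest level of 34.2% of all genes. The 1 exception was Srsf5, which was highest in MPX 2. The summed level of the 37 genes was 12171 CPM in CPX 6, well above CPX 4 (6637 CPM) and CPX 8 (6843 CPM). In MPX the sums were close to each other, at 7121, 6513 and 6613 CPM in libraries 2, 5 and 7. In EA they were 7174, 7985 and 9028 CPM in libraries 5, 7 and 8, so the lowest EA library lay just above the highest MPX library. As a share of listed counts the members made up 0.500%, 1.31% and 0.671% in CPX 4, 6 and 8. That share was 0.654% to 0.721% in MPX and 0.746% to 0.989% in EA. Within EA, library 7 was above library 5 for all 37 members, although for 56.1% of all genes, and library 8 was above library 7 for 33, beside 51.4% of all genes. One-sided orders occurred in the other groups too. CPX 6 was above CPX 4 and above CPX 8 for all 37 members (49.0% and 51.0% of all genes). MPX 2 was above MPX 5 for 27 (49.9%) and above MPX 7 for 26 (49.5%). CPX 8 was above CPX 4 for 20 members (52.4% of all genes) and MPX 7 above MPX 5 for 21 (51.7%). The median coefficient of variation of a member was 36.4% in CPX, 6.69% in MPX and 11.6% in EA, and over all genes it was 43.0%, 10.8% and 14.9%.

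**Figure D1:**
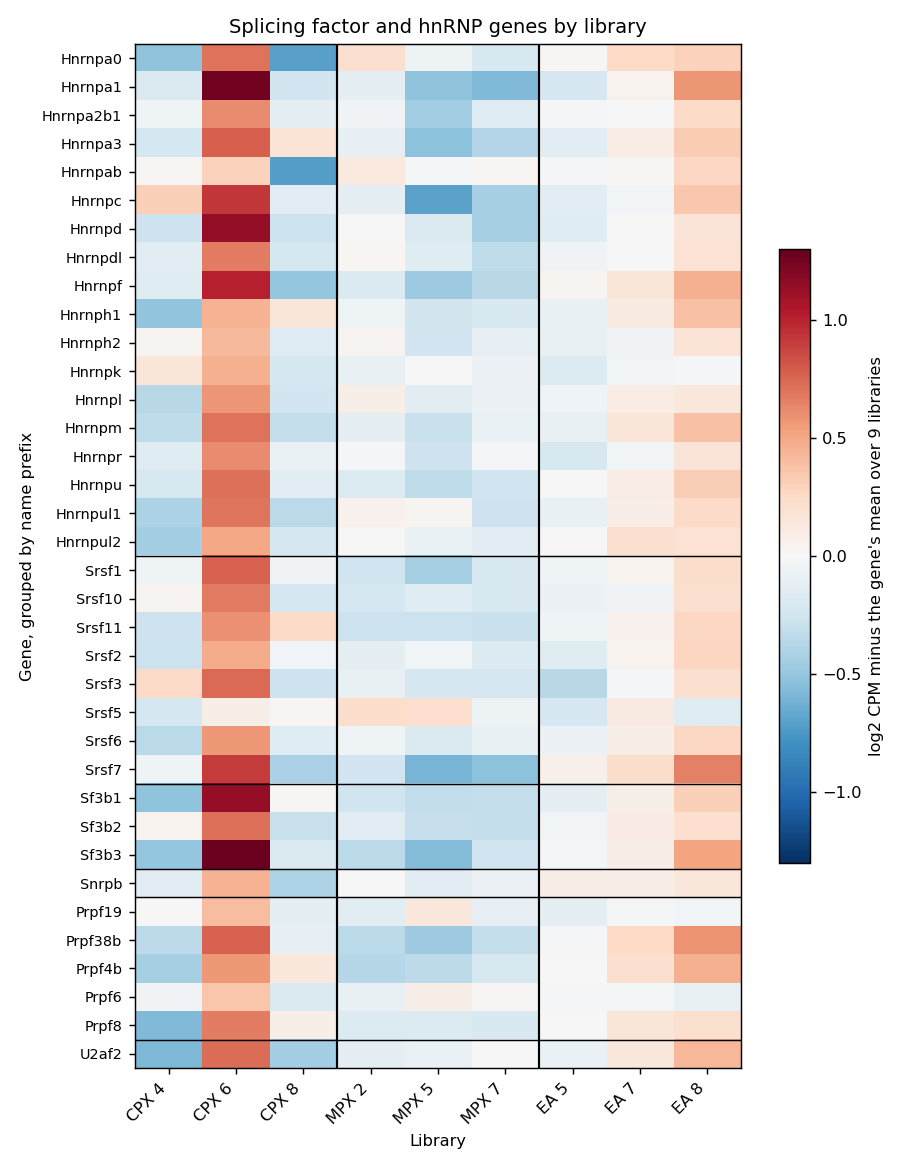
Log2 CPM of 36 of the 37 genes in each of the 9 libraries, after subtraction of the gene's mean over the libraries; rows are grouped by name prefix and vertical lines part the groups CPX, MPX and EA. CPX 6 is the highest library in each row but that of Srsf5, and of all 37 genes 33 lie above their mean in EA 8, 27 in EA 7 and at most 9 in any other library.

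Levels of different genes were compared per kilobase of the length the table gives. On that scale Hnrnpa2b1 was the most abundant member, at a mean of 99.7 CPM per kb over the 9 libraries, followed by Hnrnpa0 (83.7 CPM per kb), Srsf5 (77.1 CPM per kb) and Hnrnpk (75.0 CPM per kb). Hnrnpr, a relative of hnRNP Q with a listed length of 22199 bases, was lowest at 4.29 CPM per kb. Within the families the leading genes were Sf3b2 (60.4 CPM per kb) and Prpf8 (49.1 CPM per kb), beside Snrpb (53.7 CPM per kb) and U2af2 (32.7 CPM per kb).

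Against MPX, electroacupuncture libraries held somewhat more RNA of most splicing genes, and no single gene passed the test. The log2 difference EA minus MPX was positive for 33 members and negative for 4 (Srsf5, Prpf6, Prpf19 and Hnrnpk), with a median of 0.23, beside 0.012 over all genes, of which 51.4% were positive. With scaling by the listed totals alone, 36 were positive and the median of all genes moved to 0.11. For 14 members (37.8%) every EA library was above every MPX library, beside 21.5% of all genes: Hnrnpa2b1, Hnrnpf, Hnrnpu, Srsf1, Srsf7, Srsf10, Srsf11, all 3 Sf3b genes, Snrpb, Prpf4b, Prpf8 and Prpf38b. For no member was every EA library below every MPX library, beside 19% of all genes. Leaving out EA 8 can only keep or add such genes, and the count was again 14, beside 23.5% of all genes. In the fit without EA 8, 30 members were positive and 7 negative. Their median was then 0.16, beside 0.011 over all genes. By family, ranges parted upwards for 3 of 18 Hnrnp, 4 of 8 Srsf, 3 of 3 Sf3b and 3 of 6 Prpf genes.

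In edgeR's quasi-likelihood test over all 9 libraries, 0 members passed an adjusted p of 0.05, as did 0% of all genes, and 0 members had an unadjusted p under 0.05, which 5.1% of all genes had. The smallest adjusted p of a member was 0.775. In DESeq2, 3 members had an unadjusted p under 0.05 (Srsf7, Prpf38b and Prpf4b), beside 11% of all genes, and none an adjusted one, where 49 genes were called, and in limma voom none had either. Fitted on the EA and MPX libraries alone, which leaves out the wide spread of CPX, edgeR gave 9 of the 37 members an unadjusted p under 0.05, all higher in EA. Of all genes 16.2% had one in that direction and 32.1% in either direction. The smallest adjusted p was then 0.0705 (Srsf7), so no member was called, while 2.12% of all genes were. Without CPX 6 alone, 7 members had an unadjusted p under 0.05, beside 19.9% of all genes, and none was called, where 23 genes were.

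**Figure D2:**
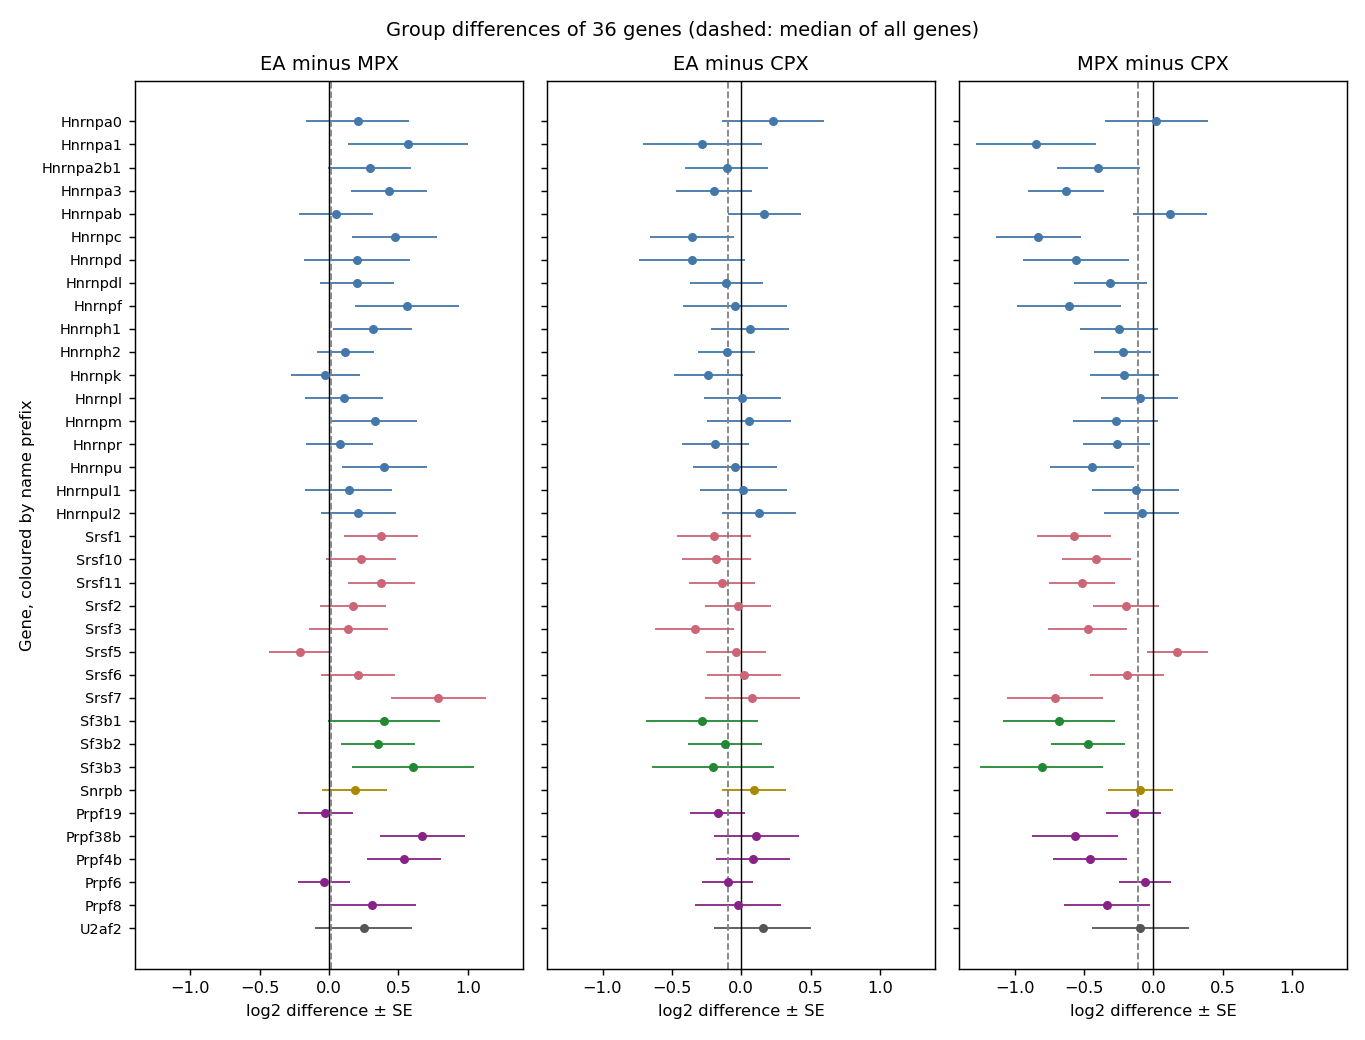
Log2 difference of 36 of the 37 genes in the 3 comparisons (points, edgeR) with its standard error (lines), coloured by name prefix; the dashed line is the median of all 3958 genes. Points for EA minus MPX lie mostly right of 0 and points for MPX minus CPX mostly left, and no point passed the adjusted test.

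Against CPX, the EA libraries showed no common direction. The difference EA minus CPX was positive for 13 members and negative for 24, and 39.0% of all genes were positive. The members' median of -0.099 was close to that of all genes (-0.093). Upper quartile factors turned it to 0.024, with all genes at 0.027, and scaling by the listed totals turned it to 0.082, with all genes at 0.10, so the members stayed near the other genes under each. No member was called by edgeR, beside 0% of all genes, and none had an unadjusted p under 0.05, beside 2.96%. No member's ranges parted in either direction, where 2.1% of all genes did so upwards and 5.08% downwards. DESeq2 gave 0 members and 5 genes.

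This comparison turned on CPX 6. Without that library 32 members were positive, the median was 0.28 beside -0.041 over all genes, and 16 members lay above CPX 4 and CPX 8 in every EA library, beside 18.4% of all genes. In that fit 9 members had an unadjusted p under 0.05, beside 23.4% of all genes, and none was called, where 12 genes were. Hnrnpa0, an A/B type hnRNP encoded without introns, had the smallest adjusted p there, 0.118 in edgeR, with a log2 difference of 0.80 (SE 0.21). U2af2 was next, with 0.68 (SE 0.19, adjusted p = 0.128 in edgeR).

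MPX libraries were lower than the CPX mean for nearly all members, again without a call. The difference MPX minus CPX was negative for 34 members and positive for Srsf5, Hnrnpab and Hnrnpa0, while 2348 of all 3958 genes were negative. The members had a median of -0.33 beside -0.11 over all genes. Upper quartile factors left 30 negative, with a median of -0.25. In edgeR 0 members passed the adjusted threshold, beside 0% of all genes, and 1 had an unadjusted p under 0.05 (Hnrnpc), beside 13.2%. Ranges parted downwards for 3 members (8.11%), Srsf1 and Srsf11 among them, beside 7.71% of all genes, and upwards for none, beside 8.46%. DESeq2 gave 6 members an unadjusted p under 0.05, beside 22% of all genes, and none an adjusted one, with 201 genes called.

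Here too 1 library decided the size. Without CPX 6, 17 members were positive and 20 negative, and the median was -0.024. Ranges then parted upwards for 6 members, Hnrnpa0, Hnrnpl, Hnrnpm, Hnrnpul1, Hnrnpul2 and U2af2, beside 14.9% of all genes, and downwards for the same 3 as with CPX 6, beside 14.9%. Those 3 could not be lost by leaving out a library, but for Srsf1 and Srsf11 the gap depended on the scaling, as given below. Without CPX 4 the median was -0.45, 11 members parted downwards beside 19.6% of all genes, and 11 had an unadjusted p under 0.05, beside 23.4%. Without CPX 8 the median was -0.42, 11 parted downwards beside 16.2% of all genes, and 168 genes but no member were called.

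Among the hnRNPs, Hnrnpc had the smallest p of all members for MPX against CPX. The gene (chr14:52073377-52104028, minus strand, mm10) encodes hnRNP C, which binds uridine tracts of nascent transcripts. Its level was 215, 329 and 158 CPM in CPX 4, 6 and 8, 159, 107 and 129 CPM in MPX 2, 5 and 7 and 157, 169 and 222 CPM in EA 5, 7 and 8. Only MPX 2 reached the lowest CPX library, and the EA values spanned the same range as CPX 4 and CPX 8. The log2 difference MPX minus CPX was -0.83 (SE 0.31, adjusted p = 0.362 in edgeR), EA minus MPX was 0.47 (SE 0.31) and EA minus CPX was -0.35 (SE 0.30). Without CPX 6 the first was -0.50 (SE 0.25), no longer with an unadjusted p under 0.05, and the last -0.04 (SE 0.25).

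The A/B type hnRNPs bind exonic and intronic silencer elements. Hnrnpa2b1, the most abundant of them, stood at 619, 987 and 592 CPM in CPX 4, 6 and 8, 625, 472 and 572 CPM in MPX 2, 5 and 7 and 635, 643 and 765 CPM in EA 5, 7 and 8. EA lay above MPX in each library, by 0.29 (SE 0.30) on the log2 scale, with EA 5 and MPX 2 close together. Hnrnpa3, a smaller member of that group in counts, measured 68.0, 136 and 89.9 CPM in CPX, 74.0, 55.1 and 61.0 CPM in MPX and 72.2, 84.7 and 99.6 CPM in EA. MPX 2 lay above EA 5, so these ranges overlapped, and the differences were 0.43 (SE 0.28) for EA minus MPX and -0.63 (SE 0.28) for MPX minus CPX (adjusted p = 0.376 in edgeR), the latter -0.32 (SE 0.21) without CPX 6. Hnrnpa1 had a similar pattern, with a mean of 234 ± 151 CPM in CPX, 130.1 ± 23.1 CPM in MPX and 193 ± 55.6 CPM in EA (SD, n = 3). Hnrnpa0 and Hnrnpab had their lowest level in CPX 8, and their EA minus MPX differences were 0.21 (SE 0.37) and 0.05 (SE 0.26).

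Hnrnpd, which encodes AUF1, a binder of AU-rich elements in mRNA 3′ ends, was the member for which CPX 6 stood farthest from the rest. It measured 65.9, 175 and 65.1 CPM in CPX 4, 6 and 8, 79.7, 69.7 and 58.7 CPM in MPX and 71.3, 79.3 and 89.1 CPM in EA. CPX 6 was 1.96 times the next library, and the other 8 lay between 58.7 and 89.1 CPM. EA minus CPX was -0.35 (SE 0.38) and turned to 0.28 (SE 0.18) without CPX 6. EA minus MPX was 0.20 (SE 0.38). Hnrnpdl, its paralog, had an EA minus MPX difference of 0.20 (SE 0.27).

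Hnrnpk, a KH domain protein that binds C-rich sequence, was at nearly the same level in EA and MPX. It measured 534, 663 and 411 CPM in CPX, 450.4, 483 and 457 CPM in MPX and 425, 469 and 472 CPM in EA, with overlapping ranges everywhere. The EA minus MPX difference was -0.03 (SE 0.25) and EA minus CPX was -0.24 (SE 0.25), or -0.07 (SE 0.21) without CPX 6. Among the G-tract binding proteins the EA minus MPX difference was 0.56 (SE 0.38) for Hnrnpf, 0.31 (SE 0.28) for Hnrnph1 and 0.12 (SE 0.20) for Hnrnph2, and only the ranges of Hnrnpf parted. Hnrnpu, the scaffold attachment factor of nuclear chromatin, had 0.40 (SE 0.31) with parted ranges. The remaining hnRNPs lay between 0.08 and 0.33 for the same comparison: Hnrnpr, Hnrnpl (a CA repeat binder), Hnrnpul1, Hnrnpul2 and Hnrnpm (a binder of GU-rich sequence).

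Among the SR proteins the difference between EA and MPX was widest for Srsf7, a zinc knuckle SR protein that also shuttles mRNA to the export receptor. The gene lies at chr17:80200089-80207305 (minus strand, mm10), and its level was 78.8, 153 and 61.0 CPM in CPX 4, 6 and 8, 68.7, 53.8 and 56.5 CPM in MPX 2, 5 and 7 and 85.5, 95.7 and 128 CPM in EA 5, 7 and 8. All EA libraries lay above all MPX libraries and above CPX 4 and CPX 8. The log2 difference EA minus MPX was 0.79 (SE 0.34, adjusted p = 0.775 in edgeR), and on the EA and MPX libraries alone it was 0.76 (SE 0.18, adjusted p = 0.0705). MPX minus CPX was -0.71 (SE 0.34, adjusted p = 0.404 in edgeR) and -0.23 (SE 0.22) without CPX 6.

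Srsf5 had differences of the opposite sign, within overlapping ranges. This SR protein gene, known as insulin-induced in liver cells, measured 259.9, 322 and 310.1 CPM in CPX, 358, 356 and 292 CPM in MPX and 262, 332 and 275 CPM in EA, and no group stood apart. EA minus MPX was -0.21 (SE 0.22), the lowest of all members, and MPX minus CPX was 0.17 (SE 0.22), or 0.23 (SE 0.21) without CPX 6.

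On the TMM scale Srsf1 (SF2/ASF) and Srsf11 were lower in every MPX library than in every CPX library. That order rested on the TMM factor of CPX 4 (0.753). As a share of listed counts, CPX 4 lay below every MPX library for both genes. For Srsf11 it held 1593 of 14027981 counts, against 1946 of 12888448 in MPX 5. Srsf1, the founding SR protein, measured 217, 382 and 218 CPM in CPX, 188, 167 and 196 CPM in MPX and 217, 233 and 263 CPM in EA. Srsf11 (p54) measured 151, 275 and 215 CPM in CPX, 149.7, 150.3 and 149 CPM in MPX and 175, 188 and 219 CPM in EA. Its MPX values were nearly equal, with a mean of 149.7 ± 0.659 CPM (SD, n = 3), and CPX 4 was just above them. MPX minus CPX was -0.57 (SE 0.27) for Srsf1 and -0.51 (SE 0.24) for Srsf11 (adjusted p = 0.396 in edgeR for both), and EA minus MPX was 0.37 (SE 0.27) and 0.38 (SE 0.24). Without CPX 6 the MPX minus CPX differences were -0.25 (SE 0.18) and -0.29 (SE 0.20).

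Srsf3, the smallest SR protein, was the member of its family with the smallest p for EA against CPX. It measured 251, 352 and 175 CPM in CPX, 198, 180.5 and 182 CPM in MPX and 164, 208 and 245 CPM in EA, where EA 5 was the lowest of all 9 libraries. EA minus CPX was -0.33 (SE 0.28) with overlapping ranges, and -0.06 (SE 0.24) without CPX 6. The nuclear speckle protein gene Srsf2, Srsf6 and Srsf10, which encodes a splicing repressor when dephosphorylated, had EA minus MPX differences of 0.17 (SE 0.24), 0.21 (SE 0.27) and 0.23 (SE 0.25), and only the Srsf10 ranges parted.

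All 3 listed genes of the SF3B complex, which holds the branch site helix of the U2 snRNP, had EA libraries above MPX libraries. Sf3b1, the HEAT repeat subunit that clamps the branch site, measured 273, 864 and 398 CPM in CPX 4, 6 and 8, 328, 314 and 316 CPM in MPX and 361, 415 and 486 CPM in EA. The MPX values were tight and CPX 6 was 1.78 times the next library. EA minus MPX was 0.40 (SE 0.40) and MPX minus CPX -0.68 (SE 0.41), the latter -0.07 (SE 0.24) without CPX 6. Sf3b2, a subunit near the branch site, measured 196, 312 and 156 CPM in CPX, 172, 155 and 154 CPM in MPX and 185, 205 and 222 CPM in EA, a difference of 0.35 (SE 0.27) between EA and MPX. Sf3b3, the large scaffold of beta propellers, measured 80.9, 277 and 101 CPM in CPX, 89.8, 77.2 and 95.6 CPM in MPX and 113, 122 and 164 CPM in EA. It had the widest range of any member, 3.59 times from MPX 5 to CPX 6, and an EA minus MPX difference of 0.60 (SE 0.44).

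U2af2, the large U2AF subunit that binds the polypyrimidine tract, was lowest in CPX 4 and CPX 8. It measured 86.8, 214 and 95.6 CPM in CPX, 119, 122 and 131 CPM in MPX and 123, 144 and 175 CPM in EA. EA 5 lay inside the MPX range, and EA minus MPX was 0.25 (SE 0.35). Snrpb encodes SmB, a protein of the ring that surrounds most spliceosomal snRNAs, and was the one Sm core gene listed. It measured 95.4, 143 and 79.6 CPM in CPX, 104, 94.5 and 99.4 CPM in MPX and 111, 112 and 116 CPM in EA. Its EA values were nearly equal and just above MPX 2, and the difference EA minus MPX was 0.18 (SE 0.23).

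The Prpf genes split. Prpf38b, a gene of the Prp38 family at chr3:108902805-108911727 (minus strand, mm10), measured 109, 234 and 128 CPM in CPX 4, 6 and 8, 109, 99.4 and 111 CPM in MPX and 136, 166 and 207 CPM in EA. Every EA library exceeded every MPX library and also CPX 4 and CPX 8, and EA minus MPX was 0.67 (SE 0.31, adjusted p = 0.775 in edgeR). Prpf4b, a nuclear kinase that phosphorylates tri-snRNP proteins, measured 106, 213 and 158 CPM in CPX, 111, 113 and 124 CPM in MPX and 143, 166 and 198 CPM in EA, with EA minus MPX at 0.54 (SE 0.27). Prpf8, the U5 protein that cradles the catalytic RNA, measured 240.2, 566 and 380.3 CPM in CPX, 315, 315 and 312 CPM in MPX and 357, 399 and 413 CPM in EA. Its 3 MPX values had a mean of 314 ± 1.81 CPM (SD, n = 3) and lay below all EA values, and EA minus MPX was 0.31 (SE 0.31).

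Prpf19 and Prpf6 showed no such gap between EA and MPX. Prpf19, the ubiquitin ligase of the Prp19 complex, measured 125, 164 and 114 CPM in CPX, 113, 137 and 116 CPM in MPX and 115, 122 and 121 CPM in EA, a difference of -0.03 (SE 0.20) between EA and MPX. Prpf6, the bridge between the snRNPs of the tri-snRNP, had -0.04 (SE 0.19) for the same comparison and group means of 95.0 ± 5.40 CPM (MPX) and 92.6 ± 2.93 CPM (EA; SD, n = 3).

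**Figure D3:**
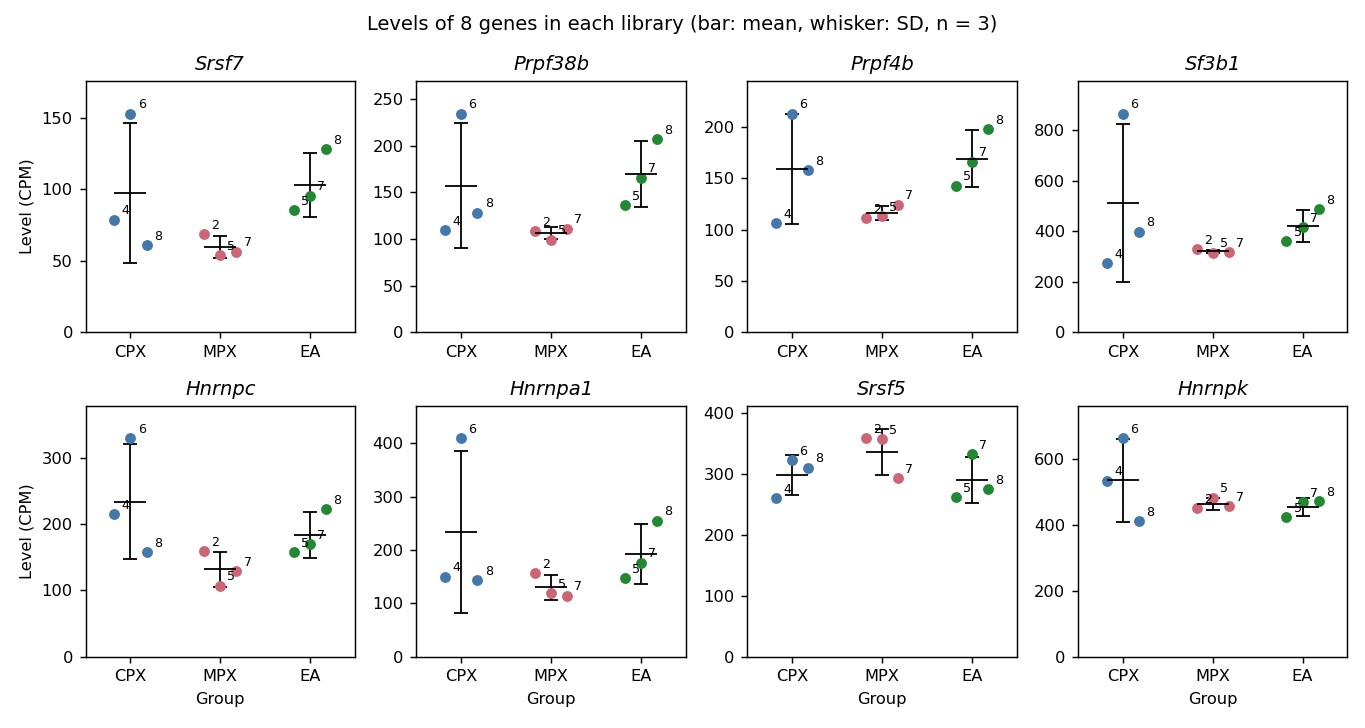
Level in CPM of 8 genes in each library (points, numbered by library), with the group mean (bar) and SD (whisker, n = 3). For Srsf7, Prpf38b, Prpf4b and Sf3b1 all EA points lie above all MPX points, for Hnrnpc, Hnrnpa1, Srsf5 and Hnrnpk they overlap, and CPX 6 is the highest CPX point in each panel.

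Other splicing genes, taken from 4 lists of known components, were described in the same way. Of all 3958 genes, 51.4% were positive for EA minus MPX and 2348 genes were negative for MPX minus CPX. Of 31 SR-related regulators and SR kinases 24 were in the table, of which 22 had a positive EA minus MPX difference (median 0.35) and 23 a negative MPX minus CPX difference (median -0.38), or 12 (median -0.013) without CPX 6. None passed the adjusted test in edgeR. Clk4 and Clk1 encode kinases that phosphorylate SR proteins. Clk4 measured 77.3, 105 and 87.2 CPM in CPX, 59.5, 57.1 and 54.8 CPM in MPX and 63.9, 78.3 and 79.6 CPM in EA. On this scale every MPX library was below every other library, but as a share of listed counts CPX 4 lay below MPX 2. Its MPX minus CPX difference was -0.65 (SE 0.18, adjusted p = 0.362 in edgeR), and that of Clk1 was -0.69 (SE 0.24, adjusted p = 0.362). Without CPX 6 they were -0.53 (SE 0.16) and -0.48 (SE 0.21). Srpk2, a further SR kinase gene of the list, had -0.08 (SE 0.18) with overlapping ranges. Luc7l3, which had a smaller p than Clk1, had -0.92 (SE 0.30, adjusted p = 0.362 in edgeR), or -0.51 (SE 0.17) without CPX 6. Rbm5, a regulator of alternative splicing, was the one gene of these 4 lists with an unadjusted p under 0.05 for EA against MPX (0.66, SE 0.29, adjusted p = 0.775 in edgeR).

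Of 54 further snRNP and spliceosome core genes 13 were listed, with 10 positive EA minus MPX differences (median 0.26) and 11 negative MPX minus CPX differences (median -0.29), or 5 (median 0.07) without CPX 6. Of 43 other hnRNP-like and alternative splicing proteins 32 were listed, with 22 positive EA minus MPX differences (median 0.30) and 25 negative MPX minus CPX differences (median -0.29), or 18 (median -0.08) without CPX 6. Matr3, a nuclear matrix RNA-binding protein, measured 279, 288 and 174 CPM in CPX, 135, 103 and 122 CPM in MPX and 141, 168 and 179 CPM in EA. All MPX values were below all CPX values, by -1.04 (SE 0.25, adjusted p = 0.362 in edgeR), and by -0.91 (SE 0.24) without CPX 6. Of 23 exon junction and export genes 7 were listed, 6 of them positive for EA minus MPX (median 0.28), among them Nxf1, the mRNA export receptor, at 0.38 (SE 0.22). No gene of these 4 lists passed the adjusted test in any comparison in edgeR.

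Markers of other cell types also differed between these libraries. Of 14 B cell markers 8 were in the table, and their sum was 656, 996 and 1942 CPM in EA 5, 7 and 8, against 27.7 to 50.3 CPM in MPX, where 7 of the 8 stayed under 5 CPM in all 3 libraries. The lowest total of a listed gene was 8471 counts, which these 8 markers reached through CPX 6 and the EA libraries. Their gap to the other libraries is thus partly fixed by that cut. The order of the B cell marker sums over the EA libraries was that of the members' summed level, and CPX 6 held the highest sum of both. None of 9 T cell markers was in the table. The 18 adipocyte markers summed to 79626, 67948 and 38233 CPM in EA 5, 7 and 8, against 96017 to 105585 CPM in MPX. Scd1 was the largest term in most libraries, at 25228, 20557 and 2161 CPM in EA. By mean log2 level, relative to the 9 libraries, the groups overlapped: 0.26, 0.12 and -0.60 in EA 5, 7 and 8 against 0.22 to 0.48 in MPX. For EA minus MPX 14 markers were negative and 4 positive. The 12 macrophage markers in the table summed to 3136 to 7388 CPM in EA and 1420 to 4171 CPM in MPX, and the 12 mitochondrially encoded genes to 30409 to 50443 CPM in EA and 41931 to 45145 CPM in MPX. The part of cell makeup in the members' levels was not tested, and in bulk tissue fewer cells of a type and less RNA per cell cannot be told apart.

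**Figure D4:**
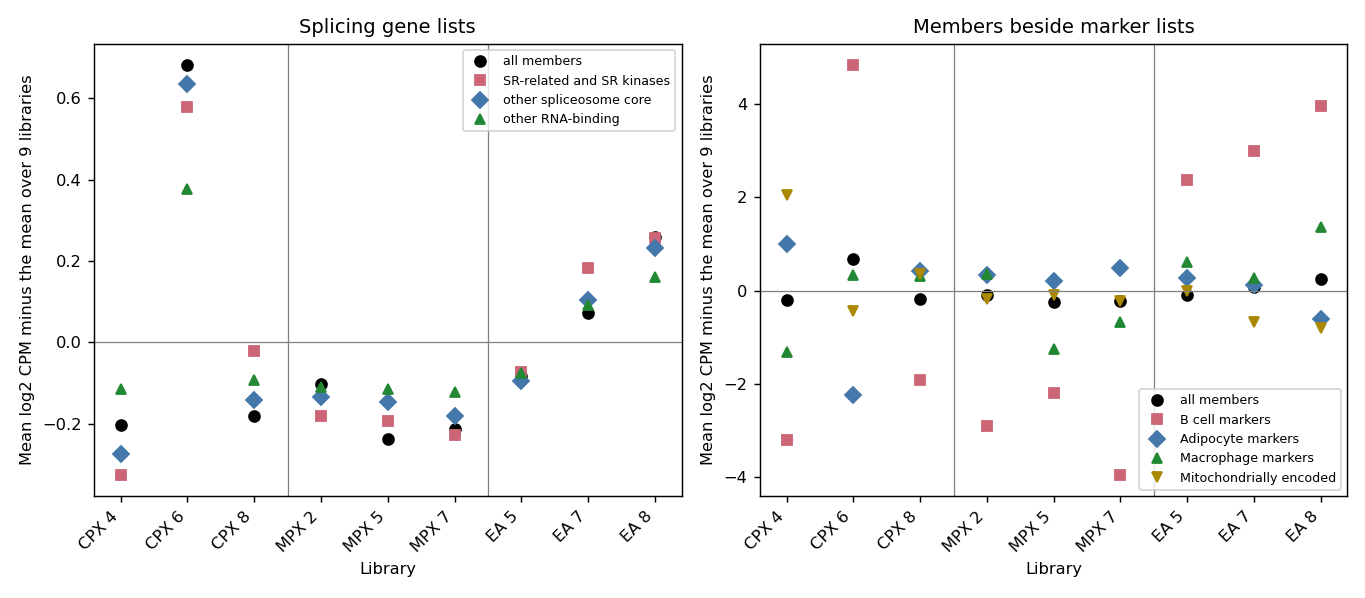
Mean log2 CPM of gene lists in each library, after subtraction of the mean over the 9 libraries, for the splicing lists (left) and for the 37 members beside cell type markers and mitochondrial genes (right, wider axis). All 4 splicing lists are highest in CPX 6 and next highest in EA 8, and the B cell markers are high in CPX 6 and the EA libraries.

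Many of these genes make transcripts that the gene counts cannot tell apart. In the GENCODE M21 annotation 21 of the 37 members (56.8%) had at least 1 transcript marked for nonsense-mediated decay, against 29.6% of 3903 protein coding genes of the table, among them 7 of the 8 Srsf genes. A retained intron transcript was annotated for 29 members (78.4%, against 66.6%). SR protein genes are known to control their own level through such unproductive transcripts, and the counts do not separate these from coding mRNA. The members lie on 16 chromosomes. Another annotated gene overlaps 17 of them on either strand, 13 on the opposite one, such as Cox20 for Hnrnpu, Rmi1 for Hnrnpk, and Mettl23 and Mfsd11 for Srsf2. Without a known strand setting the reads of such pairs cannot be told apart, and reads of hnRNP genes with processed pseudogenes, Hnrnpa1 and Hnrnpa3 among them, may have been split.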

How the data were processed

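Total RNA of 9 adipose libraries was sequenced from Illumina TruSeq libraries. Per the submitters' processing notes, reads were aligned with HISAT2 2.0.5 to mm10. For the counting program, annotation release and strand setting, nothing is given in the sources used here. The authors deposited raw counts per gene, 1 column per library, per the file headers. The table holds 3958 genes sorted by total count and its text ends inside the row of the lowest total (8471); rarer genes were not analysed here. The names of 10 genes turned into dates and of 1 cut short were restored from gene IDs.

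The main test was edgeR 4.0.16, run in R 4.3.3 (TMM, filterByExpr, robust quasi-likelihood, all 9 libraries in 1 fit, Benjamini-Hochberg over 3958 genes in each of 3 comparisons). The filter removed no gene (3958 kept), and the script was tested on simulated data. DESeq2 1.42.0 and limma 3.58.1 (voom) were alternatives. With 3 libraries against 3, an exact permutation test cannot give a p below 0.1. The SE is the difference over the square root of F. Replicates differed by far more than counting error, with a chi-square of at least 71.5 per degree of freedom.

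Every member was accounted for by name except 1, which enters the counts and medians but is not reported here. Values per library are given for the 6 members with the smallest p in each comparison and, in each prefix family, for the most abundant member per kb and those with the smallest p. In each further splicing list, up to 3 genes with the smallest p could be named. Hnrnpa0 and Srpk2 were added after their values were seen. The members and lists were chosen with earlier results of these data known.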

Additional observations from a re-analysis of the deposited data

How the results depend on the processing

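No member was called by any tool or setting, among 19 alternatives for each of 3 comparisons. The median EA minus MPX difference kept its sign in all of them. The median EA minus CPX difference turned positive with upper quartile factors (0.024), listed totals alone (0.082) and the replicate block (0.42), and ran from -0.21 without CPX 8 to 0.28 without CPX 6 when 1 library was left out. The MPX minus CPX median turned to 0.22 with the replicate block and ran from -0.45 without CPX 4 to -0.024 without CPX 6. The block uses shared library numbers (EA 5 with MPX 5, EA 7 with MPX 7, EA 8 with CPX 8). Deviations of those libraries from their group means correlated at 0.022, 0.13 and -0.51 over genes. With so few shared numbers these values cannot decide whether the numbers pair samples, and the labels do not state it. The block contrasts against CPX rest on 1 shared number. With the block 6 genes and 0 members were called for EA minus MPX, against 0 genes without it. Genes called, over all 3958, numbered 49, 5 and 201 with DESeq2 for EA minus MPX, EA minus CPX and MPX minus CPX, 84 for EA minus MPX on those groups alone, 23 and 12 for EA minus MPX and EA minus CPX without CPX 6, and 168 for MPX minus CPX without CPX 8, each against 0. A mean of at least 2000 counts kept 22 of the 37 members. By CPM without the length 30 members were above Snrpb, against 9 per kb. The labels give no batch. The common coefficient of variation of 40.2% and 3 libraries a group limited which differences could pass, and the cause of the changes with the setting was not tested. Counts of members with parted ranges without single libraries, and the values of the other splicing lists without CPX 6, were added after the data were seen.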
